A study of Mus musculus with 6 samples.

Results

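OEC1 is 1 of the 5 clusters of olfactory ensheathing cells that the authors of the data distinguished in the mouse olfactory bulb. Its members were taken by the cluster name in the deposited cell annotation, which gave 2252 of the 51426 annotated cells in 38 clusters, and 2252 of the 11551 cells of OEC1 to OEC5. Olfactory ensheathing cells are glia of neural crest origin that depend on the transcription factor Sox10. They wrap the axons of olfactory sensory neurons from the nasal epithelium into the outer layer of the bulb, where new sensory axons arrive throughout life. They are known for taking up axonal debris and for sharing many genes with Schwann cells and astrocytes.

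Single cells of whole olfactory bulbs were sequenced in 6 libraries, each made from pooled C57BL/6NJ mice of one sex at 14 weeks of age. There were 2 libraries for each of 3 conditions. The control mice had no manipulation by the labels, although the study's text also describes the open side of occluded mice as control tissue. The naris occluded group had olfactory input blocked by a plug in 1 nostril, and the trained group learned to discriminate odors, both for 6 weeks. By the study's methods the trained mice were also water deprived and worked for a water reward. No such treatment is stated for the other groups, so odor training and water deprivation cannot be told apart here. Replicate 1 was a male pool and replicate 2 a female pool in every condition, as the counts of Xist and of 4 Y-linked genes in OEC1 showed. The comparisons between conditions in OEC1 therefore rest on 2 pools a group, whose spread holds the difference between the sexes. The test of unequal responses sets sums of the same library against each other. Its very small p-values do not stand for more replicates and can rest on 1 library, as given below for Hbb-bs. The dissection also took along some olfactory epithelium.

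The OEC1 cells numbered 476 and 336 in control, 408 and 523 in naris occluded and 233 and 276 in trained libraries. They held 5051588 unique molecular identifiers (UMIs, 1 for each captured transcript molecule), between 524218 and 1056397 a library. A cell had a median of 2108 UMIs and 1129 genes, and the median mitochondrial share lay between 8.91% and 10.6% in the libraries. The library trained 1 had the fewest UMIs per cell over the whole bulb, with a median of 1028 against 1344.5 to 1723.5 in the others. Of 2249 different OEC1 barcodes, 3 occurred in more than 1 library. Levels are given as CPM, the UMIs of a gene among each 1000000 UMIs of all OEC1 cells of a library, and an SD is over the 6 libraries unless stated.

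Sox10 was measured at 278, 302, 288, 299, 324 and 299 CPM in control 1, control 2, naris occluded 1, naris occluded 2, trained 1 and trained 2, the order used throughout. The mean of 298 ± 15.7 lay close to the 279 CPM of OEC2, 253 of OEC4 and 280 of OEC5, and OEC3 was at 174 CPM. The deposited OEC3 cells had a median of only 817 UMIs and 18.6% mitochondrial UMIs. Of 12 ensheathing markers, 11 reached 20 CPM in OEC1, led by Fabp7, a fatty acid binding protein of radial and ensheathing glia (15524 ± 1036 CPM), Ptn, the growth factor pleiotrophin (11874 ± 1229 CPM), and the lipocalin Apod (5158 ± 578 CPM). Ngfr, the low-affinity neurotrophin receptor, was at 9.25 ± 2.95 CPM. Erbb3, the neuregulin receptor (211 ± 21.5 CPM), and Foxd3, a neural crest factor (122 ± 17.7 CPM), were higher in OEC1 than in any of the other 37 clusters. The label thus held by its markers, although the summed marker level of 41628 to 45256 CPM was the lowest of the 5 ensheathing clusters, against 90998 CPM in OEC4.

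Markers of other cells were low, apart from Cldn5 and a part of the Schwann cell list. The sum of 8 endothelial markers was 3336 to 4146 CPM, of which the tight junction protein Cldn5 alone made up 3235 to 4039 CPM. The other defining endothelial genes were low: Flt1 was at 8.62 CPM against 1813 in the endothelial cluster EC1, and Ly6c1 at 20.4 against 4889. Of the Schwann cell markers, Pmp22, Cdh19 and Dhh were high in OEC1, whereas Prx (0.729 CPM), Ncmap (0.757 CPM) and Egr2 (0.971 CPM), which mark the myelinating state, were almost absent. Mural markers summed to between 21.0 and 34.7 CPM, fibroblast markers to between 14.4 and 31.8 CPM, with 1 gene at 0, and microglial markers to between 94.0 and 189 CPM. Astrocyte markers summed to between 494 and 626 CPM, oligodendrocyte markers to between 164 and 210 CPM and neuronal markers to between 291 and 532 CPM. These sums are of genes that free RNA in the droplets can also supply. The myelin basic protein Mbp, for example, had a UMI in 66.1% of OEC1 cells and in 56.4% of cells of the neuronal cluster N13, and shares for other genes are therefore set beside cells that should lack them.

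The genes that set OEC1 apart from the other ensheathing clusters are a description, since the clusters were made from these same values. A leading gene had a mean of at least 50 CPM, a higher level than in OEC2, OEC3, OEC4 and OEC5 in each of the 6 libraries, and at least 1.5 times the level of the highest of them. These conditions held for 173 of 3057 genes, or 5.66%, and 67 of them stood at least 2-fold and 27 at least 3-fold above the nearest cluster. The nearest cluster was OEC2 for 80 genes and OEC5 for 80, and OEC1 had the highest level of all 38 clusters for 68. Just inside the ratio stood Fam19a5 (1.503) and Alg14 (1.51), and just outside Igfbp4 and Tmprss5 (both 1.498). The reverse rule, a mean of at least 50 CPM in each other ensheathing cluster with OEC1 below them in every library, found 64 low genes of 2308, or 2.77%, and 55 of these were highest in OEC4. Over 6014 genes on the log2(CPM + 5) scale, OEC1 was most like OEC2 (Pearson's r = 0.948 across genes), then OEC5 (0.918), OEC3 (0.907) and OEC4 (0.869).

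Genes known from Schwann cells and their myelin were among the leading genes. Dhh, the hedgehog ligand by which Schwann cells signal to the nerve sheath, was at 102, 80.9, 81.4, 80.7, 74.4 and 103 CPM, 3.44-fold above OEC5. Pmp22, a peripheral myelin membrane protein, was at 250 ± 34.2 CPM (2.11-fold), Mag, an adhesion molecule facing the axon, at 51.0 ± 8.80 CPM (2.49-fold), and Mal, a lipid raft protein, at 336 ± 32.3 CPM (1.87-fold). Cdh19, a cadherin of Schwann cell precursors, was at 148 ± 23.6 CPM (1.94-fold).

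Extracellular matrix genes and their regulators formed another group, with 7 of 21 leading and 0 of 14 low, against 5.66% and 2.77% of all genes. The list as a whole was not raised. Its summed level was 7936 to 9131 CPM in the OEC1 libraries, against 9412, 6413, 8707 and 7310 CPM in OEC2 to OEC5. Col4a1, a chain of basement membrane collagen, was at 124 ± 16.6 CPM (3.50-fold), and Postn, the matricellular protein periostin, at 111 ± 13.5 CPM (3.55-fold). Matn2, Lama4, Lamb2, Nid2 and Timp2, which are matrix or basement membrane proteins and a protease inhibitor, stood between 1.58-fold and 2.82-fold above the nearest cluster. Outside the list, the fibril-associated collagen Col12a1 was at 346, 321, 308, 284, 292 and 317 CPM (3.49-fold) and the hyaluronan link protein Hapln1 at 115 ± 17.4 CPM (3.86-fold). Other matrix genes outside the list were low, among them the collagen Col23a1 (62.6 CPM against 117 to 220) and the proteoglycan Spock2 (53.0 CPM against 119 to 272). Itgb8, an integrin subunit that activates TGF-beta (139 ± 15.3 CPM, 3.55-fold), Tns1, which ties integrins to actin (58.6 ± 17.0 CPM, 3.48-fold), and Myl9, a myosin light chain (190 ± 22.8 CPM, 3.60-fold), belong to adhesion and contractility. For Myl9 the mural cluster Mural2 was far higher, at 2978 CPM, while the defining mural markers were near 0 in OEC1 as given above.

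Signals and receptors among the 20 genes with the largest ratios included Ntrk3, the receptor for neurotrophin 3, at 153, 115, 109, 121, 135 and 144 CPM (3.71-fold). Ntn1, the axon guidance protein netrin 1, was at 88.8 ± 13.3 CPM (3.40-fold), S1pr3, a receptor for sphingosine 1-phosphate, at 117 ± 8.92 CPM (3.38-fold) and Vldlr, a receptor for reelin and lipoproteins, at 80.7 ± 17.8 CPM (3.26-fold). All of these act at the cell surface or between cells. Crabp1, which binds retinoic acid (61.6 ± 8.38 CPM, 4.16-fold), Cp, the ferroxidase ceruloplasmin (101 ± 20.5 CPM, 3.65-fold), Serping1, the inhibitor of complement C1 (82.0 ± 14.6 CPM, 3.52-fold), Sncg, the gamma synuclein (217 ± 39.3 CPM, 3.15-fold), and the transcription factor Maf (61.3 ± 10.8 CPM, 3.99-fold) completed the group with Egfl8, a secreted protein with EGF-like domains, at 504, 453, 532, 550, 425 and 485 CPM (3.20-fold). Apoc1, an apolipoprotein (629 ± 141 CPM, 3.27-fold), was unevenly spread, since the richest 10% of OEC1 cells held 65.1% of its UMIs, compared with 37.2% for Sox10 and 25.7% for Fabp7.

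**Figure D1:**
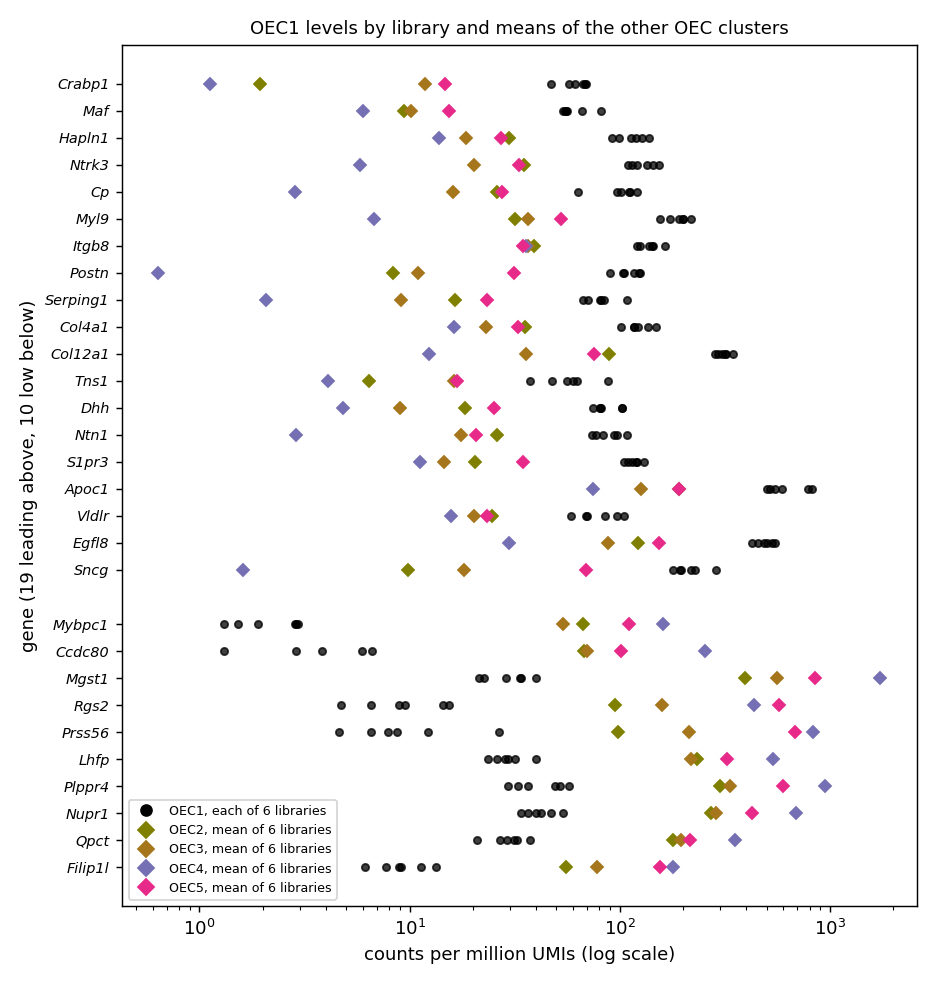
Levels of 19 leading and 10 low genes with large ratios, with CPM on a log axis. Black dots are OEC1 in each of the 6 libraries and diamonds are the means of OEC2 to OEC5; the OEC1 dots of a leading gene such as Ntrk3 (109 to 153 CPM) lie together above all 4 diamonds, and those of a low gene such as Mgst1 (21.5 to 40.1 CPM) below them. A library at 0 (Ccdc80 in trained 2) cannot be drawn on this axis.

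Cldn5, which seals tight junctions, was among the most strongly expressed leading genes, at 3723, 3305, 4039, 3721, 3235 and 3759 CPM. That was 2.99-fold above OEC2 (1215 CPM), and OEC5, OEC3 and OEC4 followed at 1066, 435 and 141 CPM. A Cldn5 UMI was found in 95.9% of OEC1 cells, 64.3% of OEC2 cells, 16.3% of OEC4 cells and 9.52% of cells of the astrocyte cluster Astro1, at median depths of 2108, 2246.5, 2116.5 and 1851.5 UMIs. After thinning every cell to 500 UMIs the shares in OEC1, OEC2 and OEC4 were 76.9%, 35.7% and 5.76%. The level was thus graded across the ensheathing clusters, and nearly every OEC1 cell carried the transcript. Of the other junction genes tested, none led (1 of 6 in all).

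Of the list of insulin-like growth factors, their binding proteins and receptors, 2 of 4 tested genes led and 1 of 3 was low, and 5 of the 10 genes reached 20 CPM in OEC1. Over all genes 5.66% led and 2.77% were low. Igfbp7 was at 1644, 1624, 1921, 1735, 1518 and 1939 CPM, 3.09-fold above OEC2, and Igfbp5 at 1655, 1952, 1790, 1759, 1427 and 1633 CPM, 1.90-fold above OEC2 (894 CPM). Igfbp4 (512 ± 43.8 CPM) just missed the ratio and was highest in OEC1 of the 5 clusters, with OEC2 at 342 CPM. The other binding proteins of the list, Igfbp2, Igfbp3 and Igfbp6, were at 17.4, 1.07 and 6.01 CPM. Igf1, the ligand, was at 52.0, 49.6, 53.0, 51.2, 59.1 and 52.1 CPM, below OEC3 (196), OEC5 (251), OEC2 (274) and OEC4 (678), whereas its receptor Igf1r was at 32.1 ± 5.37 CPM in OEC1 and at 29.1 to 34.4 CPM in the others. Igfbp5 had a UMI in 90.8% of OEC1 cells, 75.8% of OEC2 cells and 7.70% of Astro1 cells (53.2%, 33.4% and 2.56% after thinning).

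Of the 24 listed genes of the Wnt pathway, 1 of 8 tested led and 0 of 5 were low, against 5.66% and 2.77% of all genes. Wls, which carries Wnt proteins to the cell surface, was at 499 ± 60.0 CPM in OEC1 and 337, 171, 138 and 207 CPM in OEC2 to OEC5, and Sfrp5, a secreted Wnt inhibitor, was at 200, 171, 205, 148, 248 and 307 CPM (2.77-fold). Another secreted inhibitor, Frzb, was lower in OEC1 (862 ± 88.8 CPM) than in OEC2, OEC3, OEC4 and OEC5 (1554, 997, 1733 and 1347 CPM). The target genes Lef1 (4.25 ± 2.52 CPM against 49.3 to 131) and Nkd1 (5.07 ± 2.06 CPM against 44.1 to 247) were low in OEC1, but did not enter the low genes because a mean elsewhere was under 50 CPM. Axin2, a further target, was at 10.1 ± 6.48 CPM against 45.1 in OEC4. The Notch list had 0 of 8 leading and 0 of 6 low, with the target Hey2 at 306 ± 26.8 CPM, the highest of all 38 clusters, and Hes5 at 776 ± 97.2 CPM against 1479 in OEC2.

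**Figure D2:**
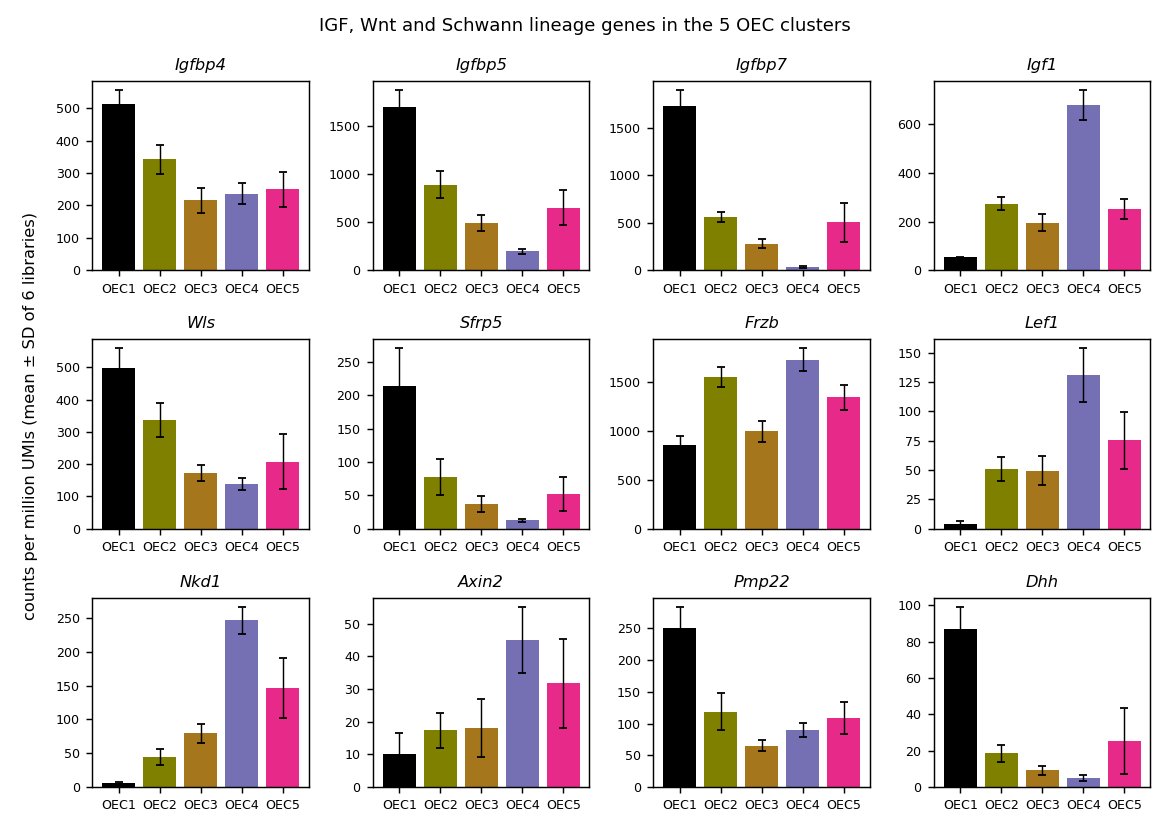
Mean CPM of 12 genes in the 5 ensheathing clusters, with error bars of 1 SD over the 6 libraries. OEC1 had the highest bars for Igfbp4, Igfbp5, Igfbp7, Wls, Sfrp5, Pmp22 and Dhh, and the lowest for Igf1, Frzb, Lef1, Nkd1 and Axin2.

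The low genes held several of the most abundant transcripts of ensheathing cells. Npy, a neuropeptide known from ensheathing cells of the inner nerve layer, was at 3804, 3557, 3866, 3694, 4077 and 4222 CPM, against 11065 to 20739 in the other ensheathing clusters. A Npy UMI was nevertheless found in 89.7% of OEC1 cells, against 37.2% of Astro1 cells and 30.7% of N13 cells (66.4%, 15.2% and 12.7% after thinning). Kctd12, a subunit of GABA-B receptors, was at 393 ± 40.0 CPM (3.19-fold lower than in OEC3, the next), Ptn was 1.64-fold and Apod 1.53-fold lower than in the next cluster. Mgst1, a microsomal glutathione transferase, was at 33.7, 28.7, 22.7, 33.5, 40.1 and 21.5 CPM against 393 to 1737 CPM. Its share of cells with a UMI in OEC1 (5.73%, or 1.64% after thinning) was near that of the neuronal cluster N13 (2.82%, or 1.08%) and far from OEC2 (43.0%, or 15.4%).

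Among the other low genes with the largest ratios were the myosin-binding protein Mybpc1 (2.24 CPM against 53.8 or more), the secreted Ccdc80 (3.42 CPM against 67.3 or more), Rgs2, a brake on G protein signals (9.91 CPM, 9.54-fold lower), and the protease Prss56 (11.1 CPM, 8.81-fold lower). Lhfp, Plppr4, the stress-induced Nupr1, Qpct, which forms pyroglutamate ends on peptides, and Filip1l were between 5.86-fold and 7.31-fold lower than in the next cluster. Of the listed genes for water, ions and transmitters, 3 of 17 were low, against 2.77% of all genes. These were the water channel Aqp1 (24.1, 40.5, 46.4, 40.4, 91.6 and 52.1 CPM against 258 to 783), the glutamate transporter Slc1a3 (158 ± 16.9 CPM against 344 to 889) and Fxyd6, a regulator of the sodium pump (384 ± 41.0 CPM). In the same list 4 of 16 led, against 5.66% of all genes. They were the pump regulator Fxyd1 (3527 ± 526 CPM, 1.67-fold), Nkain4, a partner of the pump (410 ± 23.8 CPM, 1.78-fold), and the potassium channels Kcnj10 (155 ± 26.4 CPM, 1.56-fold) and Kcnj16 (152 ± 34.2 CPM, 1.96-fold).

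Other lists had few members on either side, where 5.66% of all genes led and 2.77% were low. Lipid genes had 2 of 22 leading, the fatty acid CoA ligase Acsbg1 (781 ± 29.8 CPM, 2.46-fold) and the transporter Abca8a (450 ± 26.7 CPM, 2.45-fold), and 1 of 18 low, Apod. Among glial transcription factors Sox9 led (65.0 ± 9.74 CPM, 1.71-fold, 1 of 16) and Lmo4 was low (261 ± 31.1 CPM against 466 to 1233, 1 of 14). Growth factor receptors had Ntrk2, the receptor for BDNF, leading (449 ± 33.6 CPM, 1.54-fold, 1 of 9) and 0 of 6 low. The heat shock list had Cryab leading (1182 ± 94.5 CPM, 1.97-fold, 1 of 8), the antioxidant list Gstm1 leading (607 ± 61.3 CPM, 1.86-fold, 1 of 17) and Mgst1 low (1 of 18), the phagocytosis list Cd9 leading (1282 ± 182 CPM, 1.51-fold, 1 of 12), and the interferon list Ifitm2 leading (545 ± 37.6 CPM, 1.71-fold, 1 of 12). Axon growth genes had Ntn1 leading and Ptn low (1 of 6 each), and Gdnf, Ntf3 and Lif were at 0 in OEC1. Of the cell division list 1 gene could be tested and it did not lead.

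OEC5 was set off from OEC1 by immediate early genes. Fos, Jun and Junb, which many cells switch on rapidly after a stimulus, were at 111 ± 27.5, 232 ± 22.9 and 59.6 ± 17.7 CPM in OEC1 and at 1976, 2065 and 1359 CPM in OEC5. The immediate early list summed to between 567 and 765 CPM in the OEC1 libraries and to 8131 CPM in OEC5. It had 0 of 4 leading and 0 of 2 low genes.

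Of the 50 genes that the study lists for OEC1, 46 were highest in the deposited OEC1 of the 5 ensheathing clusters, and 16 were leading genes. That list was drawn from the same cells and is no independent check. The lists of the other ensheathing clusters followed the deposited names less closely. Of 50 genes listed for OEC3, 33 were highest in the deposited OEC4, and of those listed for OEC5, 22 were highest in OEC1 and 1 in OEC5. The deposited OEC2, OEC3, OEC4 and OEC5 held 1740, 3240, 3436 and 883 cells. The study's supplement gives these cell numbers for its OEC5, OEC4, OEC3 and OEC2, in that order. By cell number these names are thus reversed between the annotation and the study. Names of clusters other than OEC1 are those of the deposited annotation.

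The share of OEC1 among all cells of a library was compared between conditions. OEC1 cells made up 4.76% and 4.36% of all cells in control, 5.60% and 5.71% in naris occluded, and 2.204% and 4.12% in trained libraries. Both naris occluded libraries lay above both control libraries and both trained libraries below them. None of these differences passed the test. The shares of naris occluded and control libraries differed 1.24-fold (95% interval 0.804 to 1.91, edgeR adjusted p = 0.624), those of trained and control libraries 0.689-fold (0.445 to 1.07, edgeR adjusted p = 0.671) and those of trained and naris occluded libraries 0.556-fold (0.358 to 0.862, edgeR adjusted p = 0.0545). Of 38 clusters, 2.63%, 0% and 15.8% passed in these comparisons.

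The last comparison depended on the library trained 1, whose OEC1 share was the lowest. Without it the ratio to naris occluded was 0.728 (edgeR adjusted p = 0.460), and without trained 2 it was 0.390 (edgeR adjusted p = 0.00498). With the replicate number as a block the ratio was 0.543 (edgeR adjusted p = 0.0435). Among cells with at least 1000 UMIs it was 0.688 (edgeR adjusted p = 0.520), and trained 1 was the library with the fewest UMIs per cell. Exact two-sided permutation tests gave p = 0.333 in each comparison, the smallest that 2 against 2 libraries allow. Counted among ensheathing cells alone, OEC1 made up 22.2% and 19.0%, 21.8% and 22.9%, and 12.02% and 17.8% in the same order. There the ratio of trained to naris occluded was 0.663 (edgeR adjusted p = 0.108), and a share does not tell fewer OEC1 cells from poorer recovery of them.

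**Figure D3:**
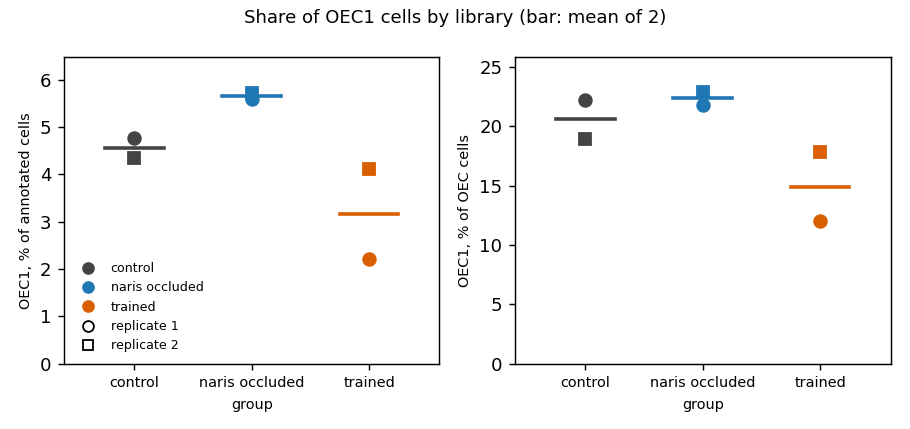
OEC1 cells as a percentage of all annotated cells and of ensheathing cells in each library, where points are libraries and bars the means of 2. The trained libraries (2.204% and 4.12% of cells) lie below the others, and trained 1 lies lowest on both axes.

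Which genes of OEC1 changed when olfactory input was blocked was asked by comparing naris occluded with control libraries. S100a5 fell. It encodes a calcium-binding protein that is known from olfactory sensory neurons, where it depends on odor input. Its level in OEC1 was 567 and 530 CPM in control, 202 and 123 in naris occluded, and 523 and 264 in trained libraries, with no overlap between control and naris occluded. The fold was 0.296 (log2 difference -1.76 ± 0.19 SE, edgeR adjusted p = 1.3e-06). It was the only gene of 9057 tested that passed: 0% were called higher and 0.011% lower, and 414 had an unadjusted p under 0.05 with edgeR. DESeq2 called 0 genes (28 with an unadjusted p under 0.05) and gave S100a5 an adjusted p of 1.00. S100a5 passed without each of the control or naris occluded libraries in turn, and with the replicate block.

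The same fall was measured outside OEC1. In OEC2, OEC3, OEC4 and OEC5 the log2 differences of S100a5 were -1.76, -1.68, -1.70 and -1.88, all past the threshold, and in each of the 37 other clusters both naris occluded libraries lay below both controls. Its highest level was 20370 CPM in the neuronal cluster N5. The 6 listed markers of olfactory sensory neurons summed in OEC1 to 965 and 893 CPM in control, 462 and 441 in naris occluded, and 998 and 569 in trained libraries. Omp, their defining marker, was at 17.3, 22.2, 11.4, 10.8, 19.1 and 10.7 CPM, and Gng13 at 364, 326, 236, 298, 435 and 281 CPM, and neither passed. The part of RNA from sensory neurons or their axons in this result was not tested.

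Training was compared with control, and 6 genes rose and 2 fell, or 0.0662% and 0.0221% of those tested (512 had an unadjusted p under 0.05). Hspa8, the constitutive HSC70 chaperone, rose from 487 and 531 CPM to 1026 and 745 CPM (log2 difference 0.78 ± 0.14 SE, edgeR adjusted p = 0.0142). Cirbp, an RNA-binding protein induced by cold, fell from 300 and 311 CPM to 156 and 201 CPM (-0.77 ± 0.15 SE, edgeR adjusted p = 0.0170). The naris occluded libraries had 476 and 517 CPM of Hspa8 and 320 and 320 CPM of Cirbp, beside the controls. Xbp1, a transcription factor of the unfolded protein response, rose from 59.8 and 49.6 to 134 and 103 CPM (1.07 ± 0.21, edgeR adjusted p = 0.0263). Mt2, a metallothionein that binds zinc and copper, rose from 189 and 191 to 366 and 294 CPM (0.78 ± 0.14, edgeR adjusted p = 0.0142), and its naris occluded libraries lay between, at 255 and 290 CPM.

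The stretch upstream of the Mt2 start is printed because metallothionein genes are the textbook case of control by a short repeated element, and it was chosen after its matches were seen. It covers chr8:94172368-94172617 on the plus strand of GRCm38.p6, with sequence and start site from RefSeq. Capitals mark matches to the core of the metal response element, TGCACNC or TGCGCNC on either strand.
Mt2: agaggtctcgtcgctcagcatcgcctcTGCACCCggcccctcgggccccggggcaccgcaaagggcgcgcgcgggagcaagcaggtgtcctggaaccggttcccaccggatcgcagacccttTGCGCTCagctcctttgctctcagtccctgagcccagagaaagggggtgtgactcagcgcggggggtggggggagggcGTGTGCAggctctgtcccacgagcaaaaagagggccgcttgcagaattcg
It holds 3 matches. Of 32851 mouse promoters of the same 250 bases, 21.4% held at least 1 match and 1.26% at least 3, and a match is no evidence of binding.

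Tsc22d3, which encodes the glucocorticoid-induced leucine zipper protein, rose with training from 102 and 99.2 to 217 and 152 CPM (0.84 ± 0.18, edgeR adjusted p = 0.0437). Plce1, a phospholipase C, rose from 128 and 136 to 223 and 245 CPM (0.82 ± 0.15, edgeR adjusted p = 0.0142). The noncoding 2900052N01Rik rose from 13.5 and 6.53 to 45.8 and 35.3 CPM (1.91 ± 0.39, edgeR adjusted p = 0.0294), on 14, 5, 24 and 23 UMIs. In all 6 genes both trained libraries stood above both controls. The hemoglobin gene Hbb-bs fell from 296 and 40.5 to 32.4 and 38.3 CPM (-2.32 ± 0.46, edgeR adjusted p = 0.0263). That difference rested on the library control 1, without which it was -0.20 (edgeR adjusted p = 0.998). Red blood cell markers summed to 425, 54.8, 178, 133, 42.0 and 47.5 CPM in the 6 libraries. Of the 597 Hbb-bs UMIs in OEC1, 181 were in 1 cell. A Hbb-bs UMI was found in 23.7%, 8.93%, 25.7%, 15.5%, 7.30% and 8.33% of OEC1 cells in the same order. The part of that cell in the Hbb-bs calls was not tested.

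Each of the 8 calls was lost when some library was left out. Without trained 1 the difference of Hspa8 was 0.54 (edgeR adjusted p = 0.161), that of Cirbp -0.61 (edgeR adjusted p = 0.297) and that of 2900052N01Rik 1.73 (edgeR adjusted p = 0.182), and Xbp1, Mt2 and Tsc22d3 also lost the call (edgeR adjusted p = 0.330, 0.161 and 0.713). Without control 1 the calls of Hspa8, Cirbp, Mt2, Xbp1, Plce1 and Tsc22d3 were lost. Without control 2 those of Cirbp, Tsc22d3, Mt2, Xbp1 and 2900052N01Rik were lost. Directions held in all fits that left out 1 library. The differences ran from 0.54 to 1.00 for Hspa8, -0.98 to -0.61 for Cirbp and 0.63 to 0.93 for Mt2. For Xbp1 they ran from 0.89 to 1.25, for Tsc22d3 from 0.58 to 1.09, for Plce1 from 0.74 to 0.89 and for 2900052N01Rik from 1.55 to 2.57. With the replicate block 15 genes passed, DESeq2 called 1 (86 unadjusted), and with 233 cells drawn from each library 0 passed.

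The direction was shared with other clusters, in which the 2 trained and the 2 control libraries did not overlap the same way in 28 of 37 for Hspa8 and for Cirbp (0 the other way), 23 for Xbp1 (2 the other way), 22 for Mt2 (1), 20 for Tsc22d3 (0) and 22 for Hbb-bs (0). Among all genes tested in OEC1, 18.2% stood higher in both trained than in both control libraries. In OEC2 to OEC5 Hspa8 rose by 0.93, 0.80, 0.78 and 0.89 on the log2 scale (edgeR adjusted p = 0.00549, 0.00992, 0.00268 and 0.0320). Cirbp had differences of -0.88, -0.71, -0.82 and -1.03, past the threshold except in OEC3 (edgeR adjusted p = 0.00549, 0.217, 0.00112 and 0.0223). These clusters come from the same libraries as OEC1 and are not further replicates. For Plce1 the libraries did not overlap the same way in 13 of 36 clusters and the other way in 4, and for 2900052N01Rik in 4 and 6 of 37. The Plce1 differences were 0.51, 0.64, 0.46 and 0.71 in OEC2 to OEC5, none past the threshold, and its response in OEC1 was not called unequal to theirs (edgeR adjusted p = 0.908), nor was that of 2900052N01Rik (edgeR adjusted p = 0.783).

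The heat shock list summed to 3277 and 3383 CPM in control, 3380 and 3430 in naris occluded and 4634 and 3564 in trained libraries. Of its 11 tested members 1 passed (Hspa8). The median log2 difference between trained and control was 0.38 while that of all genes lay within 0.01 of 0. In 7 members (63.6%) both trained libraries stood above both controls, against 18.2% of all genes tested. The rise was shared with OEC2 to OEC5 together, where the list summed to 2681 and 2669 CPM in control, 2701 and 2730 in naris occluded and 4157 and 3107 in trained libraries. Mt2 was the antioxidant gene that passed, and in the lists for insulin-like growth factors, junctions, matrix, Wnt, Notch, lipids, myelin and interferon 0 passed in any comparison. Over all 9057 genes only 1, 8 and 8 passed in the 3 comparisons, so a count of 0 in a short list is near that share. None of the 173 leading genes passed in any of the 3 comparisons, and their median differences were 0.02, 0.02 and 0.01. None of the 62 low genes that were tested passed, with medians of 0.07, 0.11 and 0.08. Cldn5, for example, differed by 0.14 between naris occluded and control and by -0.02 between trained and control. The counts of 0 among leading and low genes are also near the share over all genes, and are no result about these genes.

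Trained and naris occluded libraries were set side by side, and share their libraries with the comparisons above. The trained mice were also water deprived, so the 2 groups differ in more than olfactory input. Again 6 genes rose and 2 fell, 0.0662% and 0.0221% of those tested (632 unadjusted). Vegfa, the vascular endothelial growth factor, had the largest difference, at 56.9 and 64.0 CPM in control, 14.2 and 25.6 in naris occluded and 143 and 61.3 in trained libraries (2.30 ± 0.31 SE, edgeR adjusted p = 0.000184). It passed without each library of these 2 groups in turn, with differences of 1.62 to 2.83. Control libraries lay between the others for male pools and beside the trained library for female pools, and the difference between naris occluded and control was -1.59 ± 0.32 (edgeR adjusted p = 0.0931, and 0.00386 with the replicate block). In OEC2 to OEC5 together Vegfa was at 47.3, 34.4, 31.2, 25.9, 31.3 and 37.1 CPM. Its differences between trained and naris occluded libraries ran from -0.34 in OEC4 to 1.11 in OEC2, none past the threshold. Against control, its response in OEC1 minus that in the other clusters together was -1.05 for occlusion and 1.01 for training. Neither was called (edgeR adjusted p = 0.429 and 0.0616). Whether OEC1 differed from the other clusters in trained against naris occluded libraries was not tested. Of the 37 other clusters, 14 had both trained libraries above both naris occluded ones and 5 had them below. DESeq2 did not call it (adjusted p = 0.163).

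Htra1, a secreted serine protease, rose from 413 and 430 CPM in naris occluded to 731 and 612 CPM in trained libraries (0.66 ± 0.13 SE, edgeR adjusted p = 0.0277), and controls had 439 and 453 CPM. Its highest level was 1896 CPM in Astro1, and 13 of 37 other clusters had both trained libraries above both naris occluded ones while 3 had them below. In OEC2 to OEC5 together Htra1 differed by 0.54 (edgeR adjusted p = 0.0463), in OEC2 by 0.71 (edgeR adjusted p = 0.0206) and in OEC5 by 0.86 (edgeR adjusted p = 0.0370), while the differences of 0.37 in OEC3 and 0.43 in OEC4 did not pass (edgeR adjusted p = 0.476 and 0.150). S100a5 was higher in trained libraries by 1.25 ± 0.20 (edgeR adjusted p = 0.00258), and Hspa8 (0.82 ± 0.14, edgeR adjusted p = 0.00281), Tsc22d3 (0.82 ± 0.17, edgeR adjusted p = 0.0444) and Plce1 (0.71 ± 0.15, edgeR adjusted p = 0.0338) rose as against control. Cirbp was lower by 0.84 on the log2 scale, at 156 and 201 against 320 and 320 CPM. Calb2, the calcium-binding protein calretinin of bulb interneurons, fell from 129 and 117 to 64.9 and 35.3 CPM (-1.34 ± 0.23, edgeR adjusted p = 0.00281), with controls at 98.3 and 74.4 CPM. Its highest level was 10305 CPM in the neuronal cluster N13, and 26 of 37 other clusters had it lower in both trained libraries, 0 higher. The part of neuronal RNA in the Calb2 result was not tested. Without trained 1 the call was lost for S100a5 (0.69, edgeR adjusted p = 0.133), Hspa8 (0.58, edgeR adjusted p = 0.0988), Cirbp (-0.68, edgeR adjusted p = 0.114), Htra1 and Tsc22d3 (edgeR adjusted p = 0.266 and 0.665). Without trained 2 it was lost for Calb2 (-0.94, edgeR adjusted p = 0.0525) and Plce1 (edgeR adjusted p = 0.0756). Leaving out naris occluded 1 ended the call of Htra1 and Tsc22d3 (edgeR adjusted p = 0.110 and 0.112), and leaving out naris occluded 2 that of Htra1 and Plce1 (edgeR adjusted p = 0.0530 and 0.116).

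**Figure D4:**
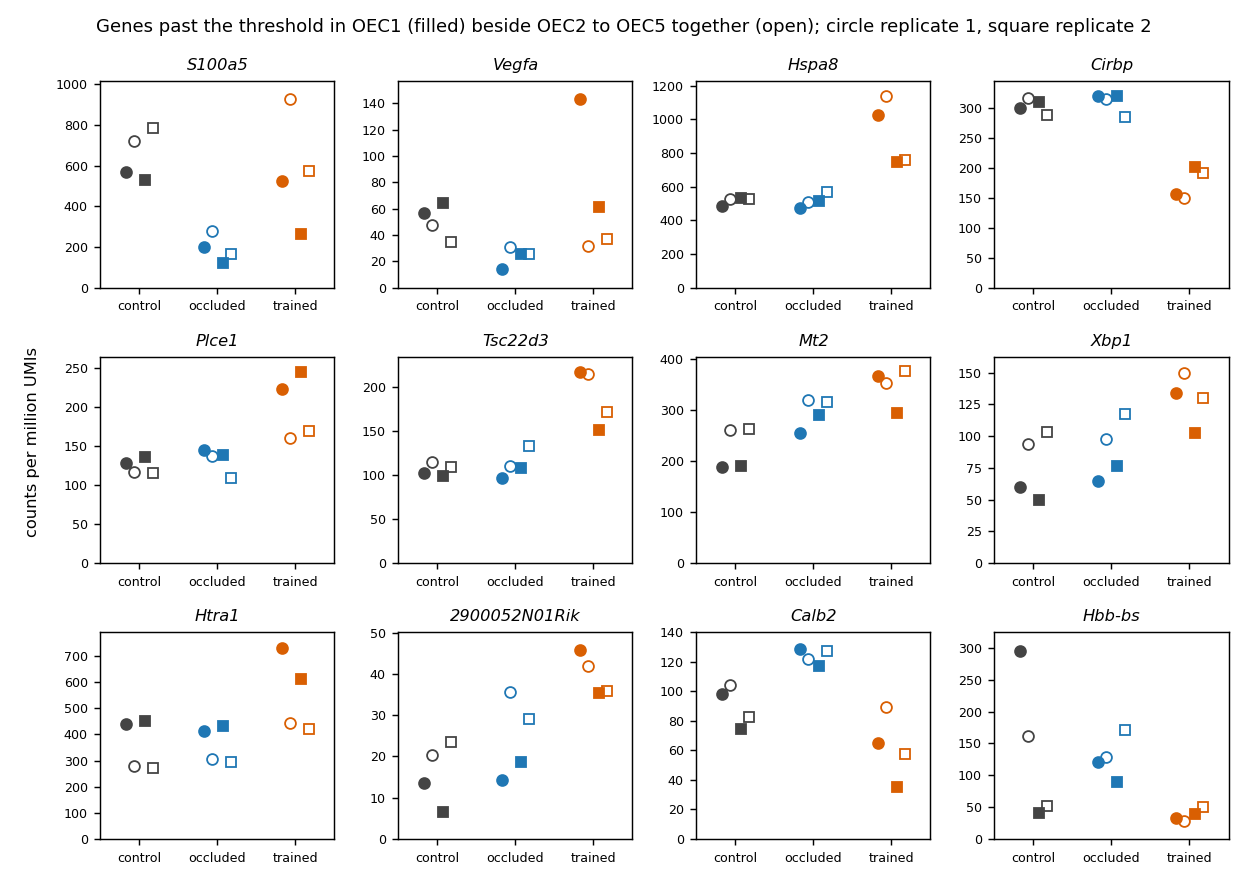
CPM of 12 genes in each library, in OEC1 (filled) and in OEC2 to OEC5 together (open), with circles for replicate 1 and squares for replicate 2. S100a5 is low in both naris occluded libraries in OEC1 (202 and 123 CPM) and in the other clusters (278 and 165 CPM). Vegfa runs from 14.2 to 143 CPM in OEC1 and from 25.9 to 47.3 CPM in the others.

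Whether OEC1 responded differently from the other ensheathing cells was tested directly, as the difference between its response and that of OEC2 to OEC5 together within the same libraries. For naris occlusion 8 of 11238 genes passed (0.0712%, 585 unadjusted) and for training 9 (0.0801%, 609 unadjusted). Of the 19 genes of the interferon list, 1 passed for occlusion (Isg15) and 4 for training (Isg15, Ifi27l2a, Ifitm3 and B2m), each higher in OEC1 relative to the others. The median difference over the list was 0.33 and 0.63, against 0.00 and -0.01 over all genes tested. Isg15, an interferon-induced ubiquitin-like protein, was at 412, 223, 255, 361, 309 and 285 CPM in OEC1 and at 448, 196, 127, 253, 132 and 177 CPM in OEC2 to OEC5. The difference of responses was 0.75 for occlusion (edgeR adjusted p = 4.98e-07) and 0.95 for training (edgeR adjusted p = 2.27e-09), made up of -0.06 and -0.13 in OEC1 itself and -0.78 and -1.07 in the other clusters. Against OEC2 alone the Isg15 differences were 1.07 and 1.78, both past the threshold. Against each other cluster alone neither passed, with 0.23 and 0.77 against OEC3 (edgeR adjusted p = 0.999 and 0.484), -0.07 and 0.10 against OEC4 (edgeR adjusted p = 0.994 and 0.989), and 0.74 and -0.07 against OEC5 (edgeR adjusted p = 0.823 and 0.989).

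The stretch upstream of the Isg15 start is printed because Isg15 is a textbook target of interferon through a short response element, and it was chosen after its matches were seen. It covers chr4:156200819-156201068 on the minus strand of GRCm38.p6 (RefSeq). Capitals mark matches, on either strand, to GAAA followed after 2 bases of any kind by GAAA, which overlap here.
Isg15: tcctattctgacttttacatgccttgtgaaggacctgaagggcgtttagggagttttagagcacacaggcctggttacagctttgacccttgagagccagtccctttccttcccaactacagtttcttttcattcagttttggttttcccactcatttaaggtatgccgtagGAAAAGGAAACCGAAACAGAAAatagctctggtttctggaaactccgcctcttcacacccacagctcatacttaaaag
It holds 3 overlapping matches, and 2.98% of the 32851 promoters held at least 1 and 0.0122% at least 3. This describes the letters of the window only.

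Psmb8 and Psmb10 encode subunits of the immunoproteasome, which cuts peptides for antigen presentation. Psmb8 was at 52.0, 53.5, 54.0, 76.8, 61.0 and 66.0 CPM in OEC1 and at 63.0, 33.3, 21.4, 30.1, 11.2 and 19.4 CPM in the others, with differences of 1.26 (edgeR adjusted p = 0.00161) and 1.95 (edgeR adjusted p = 5.12e-07). In the sum of OEC2 to OEC5 both manipulated groups lay below both controls, and in OEC1 both lay above. Against OEC5 alone the Psmb8 differences had the opposite sign, -0.72 and -0.71, and did not pass (edgeR adjusted p = 0.991 and 0.937). Psmb10 was called for occlusion only (0.93, edgeR adjusted p = 0.00161), as were the interferon-induced GTPases Iigp1 (2.05, edgeR adjusted p = 0.00561) and Ifi47 (1.37, edgeR adjusted p = 0.0198). For training the calls were Ifi27l2a (0.63, edgeR adjusted p = 2.27e-09), the membrane protein Ifitm3 (0.36, edgeR adjusted p = 0.00136) and B2m, the light chain of class I molecules (0.35, edgeR adjusted p = 0.0463). Ifi27l2a was at 560, 657, 612, 660, 786 and 989 CPM in OEC1 and at 921, 787, 552, 914, 672 and 949 CPM in the others.

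Each of these calls against OEC2 to OEC5 together was lost when some library was left out. In OEC2 to OEC5 the interferon list summed to 5508 CPM in control 1, against 3608 to 4787 CPM in the other libraries, whereas the OEC1 sums were 6457, 6480, 6221, 6741, 6278 and 7465 CPM. Without control 1 there was 1 call for each manipulation (Iigp1, 2.69, edgeR adjusted p = 0.0112, and Jun, -0.78, edgeR adjusted p = 0.0226), each of which was lost without control 2 (edgeR adjusted p = 0.317 and 0.158), and Isg15 had differences of 0.54 (edgeR adjusted p = 0.534) and 0.73 (edgeR adjusted p = 0.118). The difference without it was 0.67 for Psmb8 under occlusion, and under training 1.34 for Psmb8, 0.38 for Ifi27l2a, 0.07 for Ifitm3 and 0.23 for B2m. For Ifi47 it was 1.19, and the call was lost (edgeR adjusted p = 0.799). Without naris occluded 2 the occlusion calls of Psmb8, Psmb10, Ifi47 and Iigp1 were lost, although their differences were still 1.25, 0.91, 1.16 and 2.11. Without naris occluded 1 the call of Isg15 was lost, with a difference of 0.55. Ifitm3 also lost its call without trained 1 (0.22, edgeR adjusted p = 0.844), and B2m passed in 1 of the 6 fits that left out a library. A fit with the replicate number in place of the library called 0 genes for either manipulation. Markers of microglia and macrophages summed to 99.3, 94.0, 98.4, 162, 105 and 189 CPM in OEC1 and to 110, 127, 97.1, 138, 109 and 118 CPM in the other clusters. The median difference of responses over their 7 tested genes was 0.46 for occlusion and 0.90 for training, with 0 past the threshold, beside 0.33 and 0.63 over the interferon list, and their part in these calls was not tested. Isg15 was also concentrated in few cells, since the richest 10% of OEC1 cells held 67.3% of its UMIs.

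The remaining calls went in other directions. Junb and Jun had lower responses to training in OEC1 than in OEC2 to OEC5 together (-1.15, edgeR adjusted p = 0.00335, and -0.66, edgeR adjusted p = 0.00160). Jun was at 219, 270, 244, 233, 217 and 207 CPM in OEC1 and at 265, 282, 280, 440, 345 and 401 CPM in the others, which include OEC5. Without trained 2 the differences were -0.35 for Junb (edgeR adjusted p = 0.942) and -0.52 for Jun (edgeR adjusted p = 0.573), and without trained 1 that of Junb was -2.13. Junb also lost the call without control 1 (edgeR adjusted p = 0.120) and Jun without control 2 (edgeR adjusted p = 0.158). Set against single clusters, Jun and Junb passed for OEC5 (-0.753 and -1.19, edgeR adjusted p = 0.00786 and 0.0338). Neither passed for OEC2, OEC3 or OEC4. There the differences were -0.112, 0.375 and -0.273 for Jun (edgeR adjusted p = 0.986, 0.967 and 0.987). For Junb they were -1.0004, -0.599 and 0.17 (edgeR adjusted p = 0.912, 0.965 and 0.989). S100a5 had a lower response to training in OEC1 (-0.51, edgeR adjusted p = 0.00113), at 523 and 264 CPM against 567 and 530 in control. That call was lost without trained 2 or control 1 (-0.40 in both, edgeR adjusted p = 0.383 and 0.627), and against single clusters it passed for OEC3 (-0.79, edgeR adjusted p = 0.00384) but not for OEC2, OEC4 or OEC5 (-0.18, -0.24 and -0.44, edgeR adjusted p = 0.932, 0.981 and 0.622). For occlusion Chchd10, a mitochondrial protein (0.55, edgeR adjusted p = 0.00293), and Gnai1, an inhibitory G protein subunit (1.06, edgeR adjusted p = 0.0388), were higher in OEC1 relative to the others, and Hbb-bs lower (-1.16, edgeR adjusted p = 8.52e-09). Against no single cluster did Chchd10 or Gnai1 pass. Without control 1 the Hbb-bs difference was -0.13 (edgeR adjusted p = 1), and without naris occluded 2 it was -0.75 (edgeR adjusted p = 0.215). Chchd10 and Gnai1 lost their calls without naris occluded 2 (0.33 and 0.89, edgeR adjusted p = 0.988 and 0.975) and without control 1 (0.46 and 0.71, edgeR adjusted p = 0.534 and 0.983). The chemokine Ccl2 was called for training (-3.41, edgeR adjusted p = 0.0420) on 7, 4, 3, 8, 2 and 6 UMIs in OEC1, too few for a level, and its call was lost without trained 2 or control 1 (edgeR adjusted p = 0.878 and 0.901).

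**Figure D5:**
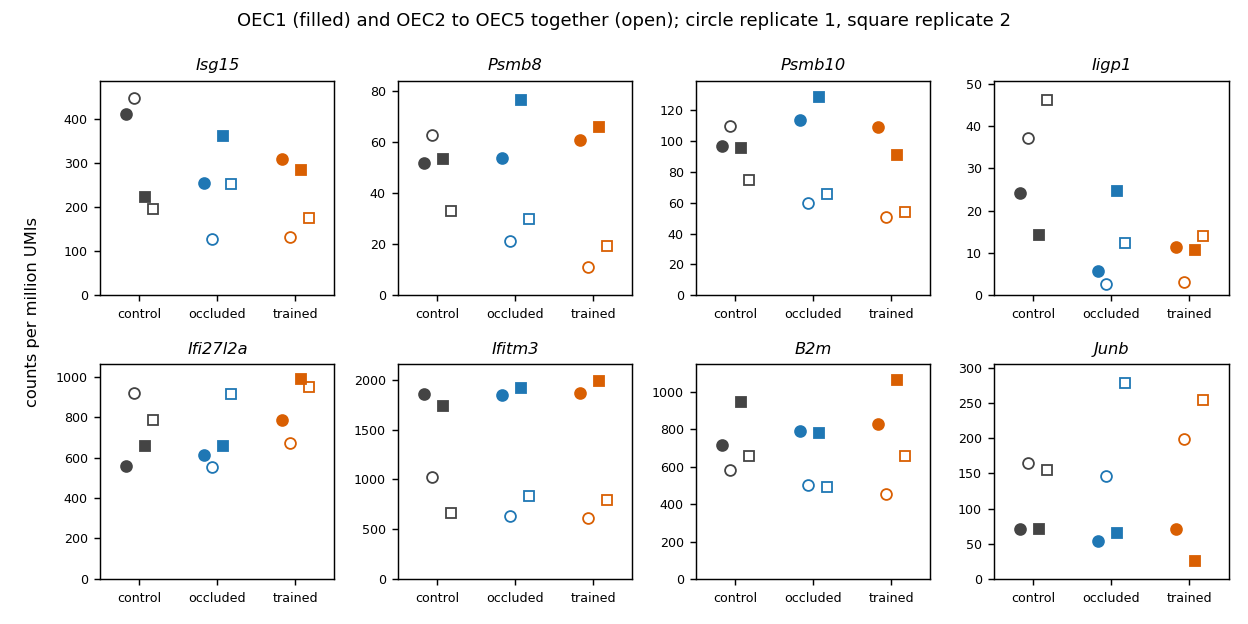
CPM of 8 genes with a call in the test of unequal responses in each library, in OEC1 (filled) and OEC2 to OEC5 together (open), with circles for replicate 1 and squares for replicate 2. Isg15 in control 1 is at 412 CPM in OEC1 and 448 CPM in the others, and in trained libraries at 309 and 285 against 132 and 177 CPM.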

How the data were processed

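Libraries were made with a droplet 3′ kit (10X Chromium, v2 chemistry) from dissociated olfactory bulbs. The submitters' processing notes name Cell Ranger 2.0.0, Seurat 2.2.1 and the mouse build mm10. The authors deposited raw UMI counts of 18560 genes in 52549 barcodes in 1 table, without normalization, and an annotation with the library, the cluster and the mitochondrial fraction of each cell. Removal of doublets is stated in the study's methods, and all annotated cells were kept here. The 1123 barcodes without a cluster were left out. The beginnings of cell names of the 2 trained libraries are exchanged against the library column of the annotation, which was used.

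Counts were summed over the cells of a cluster in each library and scaled to CPM for levels. Genes were compared between conditions with edgeR 4.0.16 (R 4.3.3) on the sums, using its quasi-likelihood test and TMM factors after filterByExpr, which left 9057 genes in OEC1, with all 6 libraries in 1 fit of 3 groups and Benjamini-Hochberg adjustment over all genes tested at 0.05. The same test was run on cell numbers of the 38 clusters with the cells of a library as offset, and on the difference between the responses of OEC1 and of OEC2 to OEC5, with the library as block. The biological coefficient of variation was 9.71%, with 3 residual degrees of freedom. DESeq2 1.42.0 was an alternative. Shares of cells holding a UMI were repeated after each cell was thinned at random to 500 UMIs. The fit was tested on simulated data for trained against control with 200 changed genes. It recovered 50% of the 100 genes changed by a log2 difference of 1 and 86% of the 100 changed by 2. Of its 143 calls 7 were false. Real differences of such sizes could thus be missed. Promoters were searched with Python 3.11.15.

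The members and the gene lists were chosen with earlier results of these data known. Genes named in condition comparisons are those past the threshold that moved the same way in both same-numbered pairs, and all genes called for unequal responses. Genes named in the profile are the 20 leading and 10 low genes with the largest ratios and, for each list, the called, highest or most different members, except for items that are not reported here. Any other gene named was chosen after its values were seen. Deviations of libraries with the same replicate number correlated at 0.0432, -0.00278 and -0.0295 over genes in the 3 pairs of conditions. The number was not taken to pair libraries beyond the sex of the pool. These correlations cannot exclude shared mice or batches, since counting noise in genes with few UMIs also brings them near 0. Whether control and naris occluded libraries of the same number share mice is not settled.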

Additional observations from a re-analysis of the deposited data

Results flagged for a closer look

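The difference of log2 responses between OEC1 and OEC2 to OEC5 together singled out the following genes, each past the threshold of edgeR's quasi-likelihood test. For naris occlusion against control the differences were 0.75 for Isg15, 0.93 for Psmb10, 1.26 for Psmb8, 1.37 for Ifi47, 2.05 for Iigp1, 0.55 for Chchd10, 1.06 for Gnai1 and -1.16 for Hbb-bs. For training against control they were 0.95 for Isg15, 1.95 for Psmb8, 0.63 for Ifi27l2a, 0.36 for Ifitm3, 0.35 for B2m, -0.51 for S100a5, -0.66 for Jun, -1.15 for Junb and -3.41 for Ccl2. Both comparisons share the control libraries. Without control 1 only Iigp1 and Jun kept their call, and these were lost in turn without control 2 (edgeR adjusted p = 0.317 and 0.158), Iigp1 without naris occluded 2 (edgeR adjusted p = 0.975) and Jun without trained 2 (edgeR adjusted p = 0.573).

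Among the 1123 barcodes that the authors left without a cluster, 18.1% held a Sox10 UMI, against 46.7% of OEC1 cells and 3.57% of annotated cells outside the ensheathing clusters. These barcodes had a median of 2327 UMIs, and their Cldn5 level was 545 CPM.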

How the results depend on the processing

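A minimum of 20 or 100 CPM in place of 50 gave 271 or 93 leading and 107 or 39 low genes, and a ratio of 2 gave 67 leading genes. For naris occluded against control, trained against control and trained against naris occluded, DESeq2 called 0, 1 and 4 genes, no filter on low counts 5, 20 and 27, and a replicate block 2, 15 and 18. A minimum mean of 20 UMIs left 4 and equal cell numbers 0 genes for trained against control, while fits of the 2 groups alone, chosen after seeing the data, called 2 (naris occluded against control) and 13 (trained against naris occluded). Leaving out 1 library gave 3 to 11, 2 to 39 and 6 to 71 genes. Without one library, log2 ratios of the OEC1 share ran from 0.25 to 0.38, from -1.05 to -0.15 and from -1.36 to -0.46, and the replicate block gave -0.88 for trained against naris occluded, past the threshold.

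For unequal responses to occlusion, comparison with OEC3 or OEC5 alone called 0 genes, with OEC2 alone 4 and with OEC4 alone 2 (the last pair chosen after seeing the data), and the replicate block in place of the library 0. For training, OEC2 alone called 12, OEC3 alone 3, OEC4 alone 0, OEC5 alone 8 and the replicate block 0. Leaving out 1 library gave 1 to 9 and 1 to 20. The cause of these changes was not tested. For the genes named in the 3 condition comparisons, 210 alternatives kept the call, 61 lost it and 0 reversed. Differences of responses took the opposite sign against single clusters, none past the threshold of edgeR there: against OEC4 alone Isg15 (-0.07) and Ifi47 (-0.31) for occlusion and Junb (0.17) and Ifitm3 (-0.04) for training, against OEC5 alone Psmb8 (-0.72 for occlusion, -0.71 for training) and Isg15 (-0.07, training), and against OEC3 alone Jun (0.37, training). With 233 to 523 cells a library, genes under a few CPM could not be compared.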
